A study of Mus musculus with 6 samples.

Results

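The 10 genes described here encode the cell adhesion machinery of the adherens junction in the lens: the classical cadherins Cdh1, Cdh2 and Cdh11, the catenins Ctnna1, Ctnna2, Ctnnb1, Ctnnd1, Ctnnd2 and Jup, and the scaffold protein Tjp1. They were chosen by gene symbol, and each of the 10 was found as a single row among the 41449 rows of the deposited table. RNA was sequenced from 6 libraries, each made from 2 lenses of mice aged 2 months. The 3 wild-type (WT) libraries came from C57BL/6 mice, and the 3 libraries labelled as fibronectin conditional knockout (FNcKO) came from mice of mixed background (C57BL/6, 129, FVB/N). No source used here gives the floxed allele or the Cre line, and genotype and strain background cannot be told apart in this design. The study asks what fibronectin, a matrix glycoprotein bound by integrins, does in the lens after birth. Fn1 itself was low in all libraries, at 0.135, 0.188 and 0.253 FPKM in WT and 0.128, 0.0482 and 0.0942 FPKM in FNcKO. Each FNcKO value lay below each WT value, and Fn1 was below the filter for testing.

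Cadherins are transmembrane proteins that bind cadherins of the neighbouring cell in a calcium-dependent way. Their cytoplasmic tail binds beta-catenin or its relative plakoglobin, which recruits an alpha-catenin that joins the complex to actin, while delta-type catenins bind the tail close to the membrane and control how long the cadherin stays there. In the lens, E-cadherin (Cdh1) is a protein of the epithelium, and N-cadherin (Cdh2) is present in both epithelial and fiber cells. Beta-catenin also acts in the nucleus as a transcriptional partner in Wnt signalling.

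In these lenses Ctnnb1, Ctnna1, Ctnna2, Cdh2 and Tjp1 led in level in both genotypes, while Jup and Cdh11 were lowest. Of the 9 genes tested 1 passed, against 1.89% of all genes tested. This was Ctnnd2, the delta-catenin first known from neurons, which rose 1.34-fold in FNcKO, a call that was lost with any 1 of the 6 libraries left out (limma adjusted p from 0.0851 to 0.166) and under 5 of the other 10 alternatives. The summed levels of the 3 cadherins and of both alpha-catenins differed by less than the SD between libraries. The ratios within the pairs of delta-type and alpha-type catenins did not overlap between groups. Each had adjusted p = 0.2 over 8 ratios (exact two-sided permutation). How often ratios of other gene pairs separate was not computed, while 25.1% of single genes with a value in every library did. Cdh2 differed little, with a mean of 30.9 ± 1.24 FPKM in WT against 30.04 ± 0.12 FPKM in FNcKO (SD over 3 libraries). FPKM, the unit of the deposited values, is a fragment count scaled to transcript length and library size, so levels of different genes can be set side by side.

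The regulatory sequence of the delta-type catenins is shown because their ratio moved more than any other ratio of paralogs examined here. These are the 250 bases before the annotated start, from RefSeq on GRCm38.p6, written 5′ to 3′ on the strand that RefSeq gives. Bases just after these 2 starts were found in no annotated transcript of the same gene, so the check of the strand gave no answer there. Capitals mark CCAAT boxes on either strand.
Ctnnd2, chr15:30172284-30172533, plus strand: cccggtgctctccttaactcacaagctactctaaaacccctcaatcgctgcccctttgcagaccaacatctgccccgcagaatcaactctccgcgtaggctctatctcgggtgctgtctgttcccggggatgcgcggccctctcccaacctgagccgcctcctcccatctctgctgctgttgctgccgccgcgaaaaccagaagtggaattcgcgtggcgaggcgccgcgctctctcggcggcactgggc
Ctnnd1, chr2:84658978-84659227, minus strand: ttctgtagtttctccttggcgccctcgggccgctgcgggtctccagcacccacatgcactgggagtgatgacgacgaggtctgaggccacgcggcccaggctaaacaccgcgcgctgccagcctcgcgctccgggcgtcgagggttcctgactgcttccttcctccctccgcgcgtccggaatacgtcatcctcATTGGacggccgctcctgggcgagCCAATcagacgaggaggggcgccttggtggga
The motifs searched on both strands were GGGCGG (the GC box), CAGGTG (the E-box that repressors of the Snail and Zeb families bind), CCAAT and TATAAA. The Ctnnd2 window, with 62.8% G and C and 21 CpG, held 0 of these motifs, while the Ctnnd1 window, with 66.8% G and C and 26 CpG, held 2 CCAAT boxes. Of 32851 windows of this length before annotated starts, 32.7% held a GC box, 17.2% this E-box, 33.9% a CCAAT box and 12.4% a TATA box, with a median of 52.4% G and C. A match describes letters only. A second annotated start of Ctnnd1 lies inside the gene, and its window, with 3 CpG, held 2 CCAAT boxes and 1 TATA box. That window is not printed, although the strand check found bases just after its start in a transcript of the gene.

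The libraries carried the RNA of a lens. The 12 fiber cell markers with a value in every library (such as Bfsp1 and Mip) summed to 39466 to 41902 FPKM in WT and 39934 to 45226 FPKM in FNcKO, and the 12 epithelial markers (such as Foxe3 and Pax6) to 1548 to 1611 and 1644 to 1877 FPKM. Most of the fiber sum was Crygs, at means of 26435 FPKM in WT and 27754 FPKM in FNcKO. Most of the epithelial sum was Cd24a, at means of 838 and 1008 FPKM, and Igfbp7, at 468 and 463 FPKM, both named here for their level. Foxe3 stood at 12.4 and 10.1 FPKM and Pax6 at 19.3 and 19.5 FPKM. In whole lenses, fewer cells of a type and less RNA per cell cannot be told apart. Of the 9 endothelial markers 4 were without signal: Cdh5, the cadherin that defines these cells, was listed at 0 in all 6 libraries, as were Tie1, Emcn and Cldn5. WT replicate 2 has no value for Ctnnb1, which lies in the last 8.63% of the table's rows where that library is blank, so n is 2 for WT in each value of Ctnnb1.

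**Figure D1:**
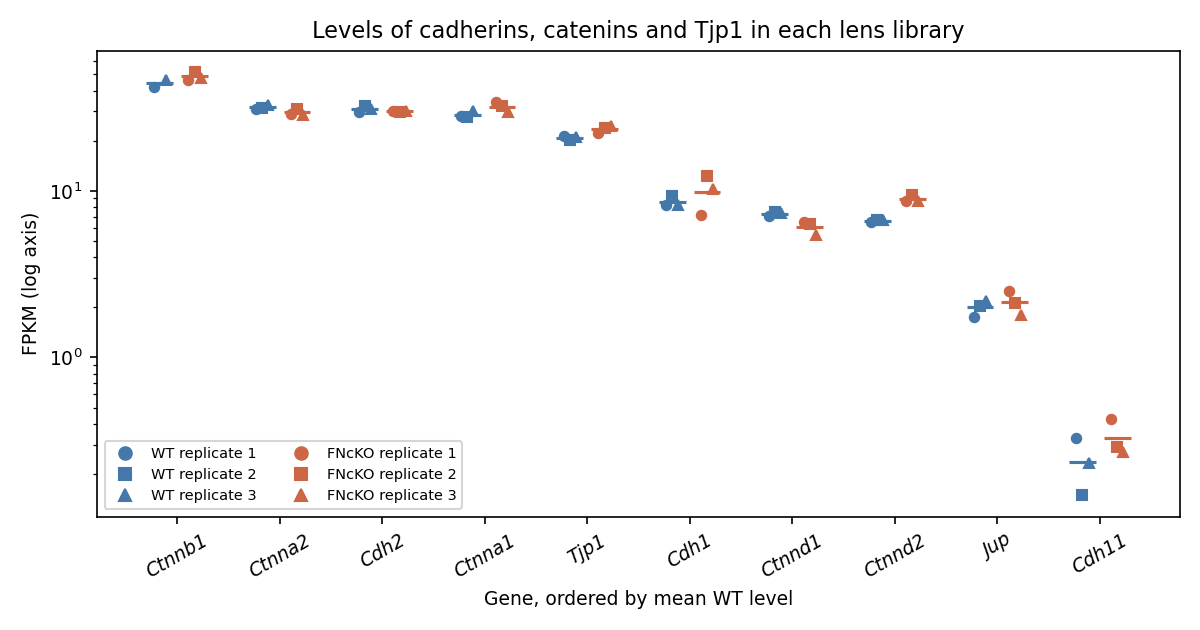
FPKM of the 10 genes in each library on a log axis, ordered by mean WT level, with WT in blue, FNcKO in orange, 1 symbol per replicate and a bar at each group mean. Ctnnb1 stands highest and Cdh11 lowest in both genotypes, and Ctnnd1 and Ctnnd2 exchange places.

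Cdh2 (chromosome 18, 16588877 to 16809246, minus strand, GRCm38) was the leading classical cadherin. Values are given in the order of replicates 1, 2 and 3: the WT libraries had 29.7, 32.1 and 31.0 FPKM of Cdh2 and the FNcKO libraries 30.1, 29.9 and 30.1 FPKM, all inside the WT range. Its log2 change was -0.04 (SE 0.058, 95% interval -0.18 to 0.10; limma adjusted p = 0.771), where log2 changes here and below are FNcKO minus WT on the log2(FPKM + 1) scale and p-values are adjusted over all 10149 genes tested. The sign of this change turned under each of the 4 other scalings between libraries, from 0.0019 to 0.38.

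Cdh1 (chromosome 8, 106603350 to 106670247, plus strand) was lower than Cdh2, at 8.18, 9.33 and 8.24 FPKM in WT. In FNcKO it stood at 7.11, 12.3 and 10.2 FPKM, so that FNcKO replicate 1 was the lowest and FNcKO replicate 2 the highest of all 6 libraries and the groups overlapped. The means were 8.59 ± 0.648 and 9.87 ± 2.61 FPKM (SD over 3 libraries each), with a log2 change of 0.15 (SE 0.18, limma adjusted p = 0.71). Without FNcKO replicate 2 the log2 change was -0.0047.

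The spread of Cdh1 in FNcKO, 26.4% of its mean, was larger than in WT (7.54%), and Cdh2 did not share it (0.398% in FNcKO). Of the 8 corneal and conjunctival markers, all in the table, 2 were tested, and they had different patterns. Aldh3a1, an aldehyde dehydrogenase placed in this list, stood at 25.6, 28.2 and 30.7 FPKM in WT and at 13.6, 43.3 and 41.4 FPKM in FNcKO. The cells that its RNA came from were not tested. As with Cdh1, FNcKO replicate 1 was the lowest of all libraries and FNcKO replicate 2 the highest. Krt18, a keratin of simple epithelia, did not follow Cdh1, at 4.68, 4.54 and 3.77 FPKM in WT and 2.29, 1.85 and 2.88 FPKM in FNcKO, where replicate 2 was the lowest of all libraries. The whole list summed to 30.8 to 35.1 FPKM in WT and 16.4 to 46.0 FPKM in FNcKO, most of it Aldh3a1, while Krt12, the keratin that defines corneal epithelium, was listed at 0 in all 6 libraries. The rest of the list was low, with means of 0.383 FPKM in WT and 0.365 FPKM in FNcKO for Krt15 and lower means for Krt8, Krt5, Krt14 and Trp63. The part of these markers in the Cdh1 values was not tested.

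**Figure D2:**
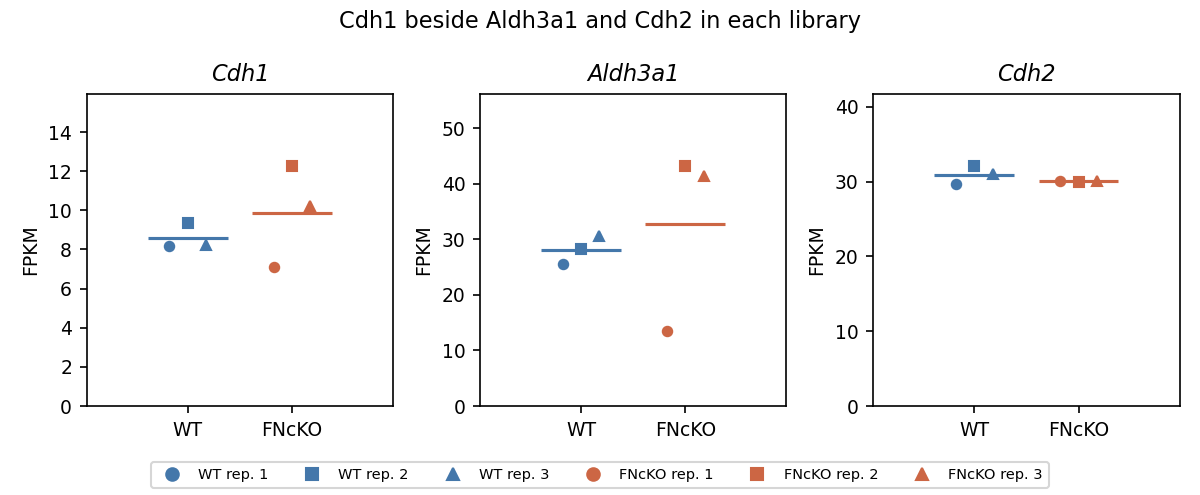
FPKM of Cdh1, Aldh3a1 and Cdh2 in each library, with WT in blue, FNcKO in orange, 1 symbol per replicate and a bar at each group mean. FNcKO replicate 1 is lowest and FNcKO replicate 2 highest for both Cdh1 and Aldh3a1, while the FNcKO values of Cdh2 lie between 29.9 and 30.1 FPKM. Krt18, the other tested gene of the corneal and conjunctival list, did not follow Cdh1 and is not drawn.

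Cdh11, a cadherin of mesenchymal cells, was the lowest of the 10 genes. It stood at 0.329, 0.149 and 0.233 FPKM in WT and 0.425, 0.292 and 0.269 FPKM in FNcKO, with overlapping groups, and it was the 1 gene of the 10 below the filter of a mean of 1 FPKM and so not tested. As a share of the summed FPKM of these 3 cadherins, Cdh1 made up 21.4%, 22.4% and 20.9% in WT and 18.9%, 28.9% and 25.2% in FNcKO. The sum itself was 39.7 ± 1.74 FPKM in WT and 40.2 ± 2.46 FPKM in FNcKO (SD over 3 libraries each).

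Ctnnb1 (chromosome 9, 120933400 to 120960507, plus strand), beta-catenin, had the highest level of the 10 genes in WT and in FNcKO. WT replicate 1 had 42.2 FPKM and WT replicate 3 had 46.2 FPKM, and the FNcKO libraries had 46.3, 51.7 and 47.6 FPKM. Every FNcKO value lay above both WT values, with FNcKO replicate 1 close to WT replicate 3. The log2 change was 0.13 (SE 0.087, limma adjusted p = 0.503). Ulk4, whose exons overlap those of Ctnnb1 on the opposite strand, stood at 1.42 FPKM in WT and 1.45 FPKM in FNcKO on average.

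Jup (chromosome 11, 100368856 to 100397805, minus strand), plakoglobin, which can take the place of beta-catenin on a cadherin tail and also belongs to desmosomes, was far lower. It stood at 1.76, 2.03 and 2.19 FPKM in WT and at 2.50, 2.13 and 1.79 FPKM in FNcKO, and the groups overlapped (log2 change 0.06, SE 0.11, limma adjusted p = 0.803). Jup made up 4.26% ± 0.371 (SD, n = 2) of the summed FPKM of Jup and Ctnnb1 in WT and 4.23% ± 0.778 (SD, n = 3) in FNcKO.

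The alpha-catenins were represented by 2 genes at similar level. Ctnna2 (chromosome 6, 76881637 to 77979703, minus strand), the alpha-catenin first described in neurons, stood at 31.2, 31.4 and 32.9 FPKM in WT and 29.0, 31.0 and 28.6 FPKM in FNcKO. Ctnna1 (chromosome 18, 35118912 to 35254775, plus strand), the alpha-catenin of epithelia, stood at 28.3, 27.6 and 30.2 FPKM in WT and 34.1, 32.4 and 29.6 FPKM in FNcKO. Each FNcKO value of Ctnna2 lay below each WT value, while the groups of Ctnna1 overlapped. Neither passed the test, with log2 changes of -0.11 (SE 0.062, limma adjusted p = 0.436) for Ctnna2 and 0.15 (SE 0.077, limma adjusted p = 0.369) for Ctnna1. The change of Ctnna2 turned positive under 3 of the 4 other scalings. Lrrtm2, a gene inside Ctnna1 whose exons overlap on the opposite strand, stood at 0.474 FPKM in WT and 1.19 FPKM in FNcKO on average.

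Their order differed between genotypes. Ctnna2 was higher than Ctnna1 in each WT library, with ratios of 1.10, 1.14 and 1.09, and lower in each FNcKO library, with ratios of 0.851, 0.957 and 0.967. Such a ratio within a library does not depend on the scaling between libraries. The ratio was 1.20-fold lower in FNcKO (exact two-sided permutation p = 0.1, the smallest that 3 against 3 allows; adjusted p = 0.2 over the 8 ratios tested). The summed level of both genes was 60.6 ± 2.26 FPKM in WT and 61.6 ± 2.99 FPKM in FNcKO (SD over 3 libraries each).

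Among the delta-type catenins, Ctnnd2 (chromosome 15, 30172593 to 31029344, plus strand) stood at 6.49, 6.69 and 6.71 FPKM in WT and at 8.69, 9.39 and 8.66 FPKM in FNcKO. The WT libraries lay close together, and all 3 FNcKO libraries were above all 3 WT libraries. Its mean rose from 6.63 ± 0.121 to 8.91 ± 0.413 FPKM (SD over 3 libraries each), a log2 change of 0.38 (SE 0.058, 95% interval 0.23 to 0.52; limma adjusted p = 0.0432). The direction held under all 16 alternatives, but the call was lost with any 1 of the 6 libraries left out (adjusted p from 0.0851 to 0.166), without the filter, without the trend and with libraries set to the same FPKM total. With the same total the log2 change grew to 0.60 and without crystallins in the total to 0.76, at adjusted p = 0.119 in both.

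Because Ctnnd2 and Ctnna2 are known as neural genes, other neural RNA is given beside them. The 12 neuron and glia markers, all in the table, summed to 20.8 to 28.3 FPKM in WT and 18.3 to 25.7 FPKM in FNcKO, and the 15 photoreceptor markers with a value in every library to 30.9 to 87.1 and 44.3 to 46.7 FPKM. Of the 6 neuron and glia markers tested, 1 passed as lower in FNcKO and 0 as higher. This was the microtubule-associated Map2, from 5.65 ± 0.188 to 1.31 ± 0.284 FPKM (SD over 3 libraries each; limma adjusted p = 0.00306). Of the 13 photoreceptor markers tested, 1 passed as lower in FNcKO and 0 as higher: Gnat1, a subunit of the transducin of rods, had 20.6 ± 2.34 FPKM in WT (SD, n = 2) and 9.42 ± 0.503 FPKM in FNcKO (SD, n = 3; limma adjusted p = 0.0215). Among the other neuron and glia markers Glul, glutamine synthetase, named after its values were seen, did not pass, at 9.60 ± 1.93 FPKM in WT and 11.4 ± 2.23 FPKM in FNcKO (SD over 3 libraries each; limma adjusted p = 0.569). Of the tested neuron and glia markers 2 had log2 changes above 0 and 4 below (median -0.20), and of the photoreceptor markers 1 above and 12 below (median -0.33). Map2 was even across the WT libraries, at 5.44, 5.75 and 5.77 FPKM. Snap25, named after its values were seen, was lower in WT replicate 2, at 3.66, 1.56 and 3.75 FPKM in WT. Ctnnd2 was higher in FNcKO, and the FNcKO values of Ctnna2 were below those of WT. The part of neural RNA in the levels of Ctnnd2 and Ctnna2 was not tested.

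Ctnnd1 (chromosome 2, 84600781 to 84658972, minus strand), the delta-type catenin found in most tissues, stood at 7.04, 7.46 and 7.35 FPKM in WT and at 6.49, 6.31 and 5.42 FPKM in FNcKO. All 3 FNcKO values were below all 3 WT values, with means of 7.29 ± 0.217 and 6.08 ± 0.573 FPKM (SD over 3 libraries each). It did not pass the test (log2 change -0.23, SE 0.078, limma adjusted p = 0.21), and the sign turned to 0.14 with the same total without crystallins. In the reference annotation Ctnnd1 shares exons with Gm28635 on the same strand. No value under that name was found among those deposited, so its level cannot be given.

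Within each library Ctnnd2 was below Ctnnd1 in WT, with ratios of 0.922, 0.897 and 0.912, and above it in FNcKO, with ratios of 1.34, 1.49 and 1.60. This was 1.62-fold higher in FNcKO, the largest log2 difference among the 8 ratios (exact two-sided permutation p = 0.1, the smallest possible; adjusted p = 0.2 over the 8 ratios). Ctnnd2 thus made up 47.7% ± 0.34 of the summed FPKM of both genes in WT and 59.5% ± 2.14 in FNcKO (SD over 3 libraries each). The sum was 13.9 ± 0.334 FPKM in WT and 15.0 ± 0.828 FPKM in FNcKO. With any 1 library left out, the log2 difference of the ratio stayed between 0.63 and 0.76.

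**Figure D3:**
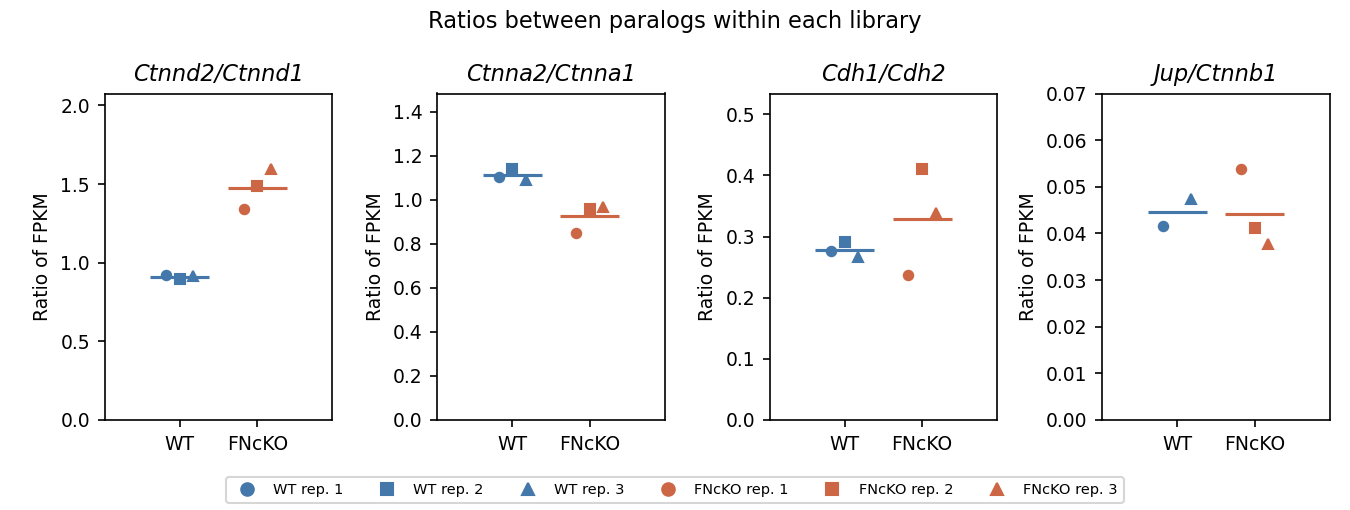
Ratio of FPKM between related genes within each library, with a separate axis from 0 for each pair, WT in blue, FNcKO in orange and a bar at each group mean. The groups separate for Ctnnd2/Ctnnd1 and for Ctnna2/Ctnna1, and they overlap for Cdh1/Cdh2 and Jup/Ctnnb1, the latter without WT replicate 2.

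Both genes were lower than Arvcf, a further member of the same catenin family, which was the most abundant gene in the list of other plaque genes. Arvcf stood at 69.8, 75.2 and 79.2 FPKM in WT and 69.3, 64.8 and 61.2 FPKM in FNcKO. Its groups did not overlap, but WT replicate 1 and FNcKO replicate 1 were close, and it did not pass (log2 change -0.20, SE 0.08, limma adjusted p = 0.275), with the sign turned under both same-total scalings.

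Tjp1 (chromosome 7, 65296165 to 65527808, minus strand) encodes ZO-1, a scaffold that ties junction proteins to actin and, in lens, also binds connexins. It stood at 21.3, 20.3 and 20.9 FPKM in WT and 22.3, 23.9 and 24.5 FPKM in FNcKO, and the groups did not overlap. The means were 20.8 ± 0.483 and 23.6 ± 1.13 FPKM (SD over 3 libraries each), 1.13-fold apart, with a log2 change of 0.17 (SE 0.061, limma adjusted p = 0.233) that was positive under every alternative. Relative to Cdh2 in the same library, Tjp1 was 1.16-fold higher in FNcKO, Ctnna1 1.15-fold higher (both exact permutation p = 0.1, the smallest possible; adjusted p = 0.2) and Ctnnb1 1.11-fold higher (exact permutation p = 0.2, the smallest that 2 against 3 allows; adjusted p = 0.32).

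The remaining ratios did not separate the groups. Cdh1 relative to Cdh2 was 0.278 ± 0.0122 in WT and 0.329 ± 0.0877 in FNcKO (SD over 3 libraries each; exact permutation p = 0.4), Cdh11 relative to Cdh2 was 0.00774 ± 0.00323 and 0.0109 ± 0.00278 (SD over 3 libraries each; exact permutation p = 0.3), and Jup relative to Ctnnb1 gave exact permutation p = 1.

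Of the 10 genes, 9 were tested and 1 passed, against 1.89% of all genes tested (0.857% higher and 1.03% lower in FNcKO). An unadjusted p under 0.05 was reached by 3 of the 9 (Ctnnd2, Ctnnd1 and Tjp1), against 18.1% of all genes tested. Of the 8 with a value in every library, 4 had groups that did not overlap (Ctnnd2 and Tjp1 higher, Ctnna2 and Ctnnd1 lower in FNcKO), against 25.1% of such genes, and Ctnnb1 was separated on 2 against 3 libraries, against 32.5% of genes lacking WT replicate 2. The median log2 change of the 9 was 0.13, where that of all genes tested was -0.04. These counts rest on few genes chosen by name.

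**Figure D4:**
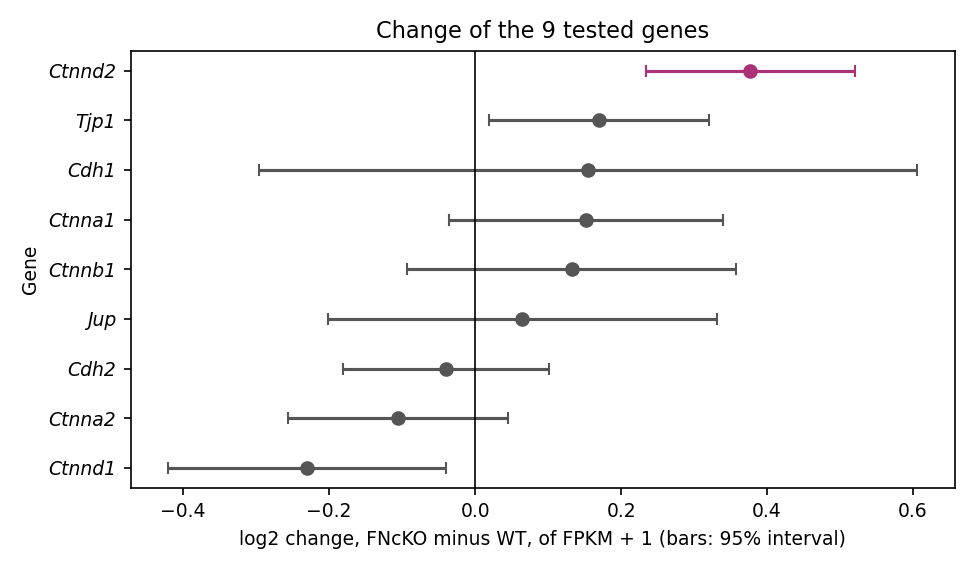
Log2 change (FNcKO minus WT, of FPKM + 1) of the 9 tested genes with 95% intervals from the limma fit, in order of size. Ctnnd2, in magenta, is the gene past adjusted p 0.05, and the interval of Cdh1 is the widest.

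In order of level, Ctnnb1 led in both genotypes. Next came Ctnna2, Cdh2 and Ctnna1 in WT and Ctnna1, Cdh2 and Ctnna2 in FNcKO, where each neighbour overlapped the next in range. Tjp1, at 20.8 FPKM in WT and 23.6 FPKM in FNcKO, and then Cdh1 came next. Below Cdh1 the order of Ctnnd1 and Ctnnd2 in FNcKO was the reverse of that in WT, with separate ranges in each genotype, while the FNcKO ranges of Cdh1 and Ctnnd2 overlapped. Jup and Cdh11 were last in both, with ranges apart from each other and from the genes above.

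Around this core, 147 of 148 listed genes of cell junctions and cadherin control were in the table and 77 were tested. By limma 0 of the 77 passed in either direction, against 1.89% of all genes tested, and 12 of the 77 reached an unadjusted p under 0.05, beside a share of 18.1% over all 10149 genes. No other tool was run across genes. Their median log2 change was -0.03, beside -0.04 for all genes tested. Without FNcKO replicate 1 a single gene passed (limma adjusted p = 0.0397, against 0.285 with all libraries). This was Pdlim1, an actin-linked adaptor named after its values were seen, with 29.4, 32.9 and 32.8 FPKM in WT and 32.0, 51.8 and 53.9 FPKM in FNcKO.

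Cadherins beyond Cdh1 and Cdh2 were scarce, and this includes Cdh11, which was lower than Cdh4. Of 20 cadherins outside the 10 genes, only Cdh4, R-cadherin, reached the filter, at 2.82 ± 0.47 FPKM in WT and 2.73 ± 0.416 FPKM in FNcKO (SD over 3 libraries each; limma adjusted p = 0.927). Cdh5, Cdh10, Cdh15 and Cdh26 were listed at 0 throughout. Of 22 other catenin and plaque genes 18 were tested, 9 with log2 changes above 0 and 9 below. The smallest p among them was that of Nectin3, a calcium-independent adhesion molecule that works beside cadherins, at 11.7, 12.7 and 12.7 FPKM in WT and 16.3, 15.1 and 14.3 FPKM in FNcKO (limma adjusted p = 0.128). Its groups did not overlap, and its log2 change of 0.28 (SE 0.071) kept its sign under every alternative.

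Of 14 desmosome genes 5 were tested, with a median log2 change of -0.12. Ppl, periplakin, which binds intermediate filaments in fiber cells, was the most abundant at 26.8 ± 1.48 and 28.0 ± 1.28 FPKM, and Pkp2, plakophilin, had the smallest p, at 5.81 ± 0.656 and 4.77 ± 0.363 FPKM (SD over 3 libraries each; limma adjusted p = 0.27). Of 30 tight junction and polarity genes 14 were tested, of which 11 had log2 changes below 0 with a list median of -0.06. Jam3, a junctional adhesion molecule, led in level at 11.7 ± 1.62 and 11.1 ± 0.878 FPKM (SD over 3 libraries each; limma adjusted p = 0.814). Magi3, a scaffold with several protein binding domains, had the smallest p, at 10.7, 11.4 and 11.3 FPKM in WT and 9.97, 7.53 and 7.84 FPKM in FNcKO (limma adjusted p = 0.171). The groups of Magi3 did not overlap, and its sign turned with the same total without crystallins.

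Among regulators of cadherins 0 genes passed. Of 15 genes of cadherin transcription and shedding 7 were tested, with a median log2 change of -0.02. Adam10, the protease that sheds the outer part of N- and E-cadherin, had both the highest average of the genotype means and the smallest p. It had 10.4 and 9.80 FPKM in WT replicates 1 and 3, and 12.4, 14.4 and 13.5 FPKM in the FNcKO libraries, 1.33-fold apart without overlap (limma adjusted p = 0.131). Among 15 tested genes of cadherin trafficking and phosphatases, Ezr, ezrin, a linker of membrane and actin, stood at 56.0 ± 0.988 and 49.6 ± 1.42 FPKM (SD over 3 libraries each; limma adjusted p = 0.206). Ptprj, a receptor tyrosine phosphatase, stood at 3.04 ± 0.165 and 3.79 ± 0.174 FPKM (SD over 3 libraries each; limma adjusted p = 0.134). The median of that list was -0.02.

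Beta-catenin is regulated mainly by degradation, and its activity in the nucleus is read from its target genes. Of 11 degradation genes 10 were tested, 7 with log2 changes above 0 and 3 below (median 0.03), none with an unadjusted p under 0.05. Csnk1a1, casein kinase 1 alpha, stood at 44.5 ± 0.541 and 44.4 ± 2.99 FPKM (SD over 3 libraries each; limma adjusted p = 0.981), and Amer1, an Axin and Apc partner, at 1.15 ± 0.0237 (SD, n = 2) and 1.46 ± 0.263 FPKM (SD, n = 3; limma adjusted p = 0.516). Of 20 target and partner genes 7 were tested, 3 above 0 and 4 below (median -0.03), again with 0 at an unadjusted p under 0.05. Axin2, the target most widely used as a readout of Wnt signalling, stood at 1.67, 1.39 and 1.33 FPKM in WT and 1.61, 1.92 and 1.76 FPKM in FNcKO with overlapping groups (limma adjusted p = 0.407), and Ccnd1, cyclin D1, at 9.52 ± 0.338 and 9.13 ± 0.655 FPKM (SD over 3 libraries each; limma adjusted p = 0.727).

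**Figure D5:**
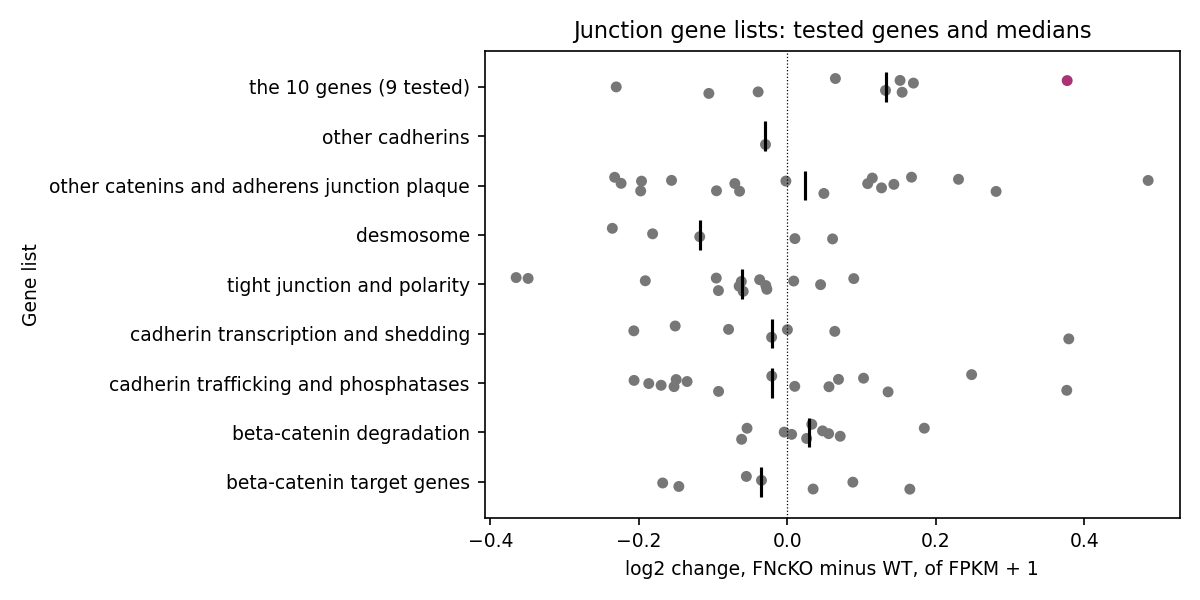
Log2 change (FNcKO minus WT, of FPKM + 1) of each tested gene by list, with a black bar at each list's median. Ctnnd2, in magenta, is past adjusted p 0.05, and the medians of the lists with more than 5 tested genes, other than the 9 genes of the core, lie between -0.06 and 0.03.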

How the data were processed

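The authors deposited a table of FPKM values. The submitters' processing notes name TopHat2 2.1.0, Cuffdiff 2.2.1, cutadapt 1.12 and FastQC, and the builds GRCm38.p5 and mm10. The kit keeps the strand, per the labels' protocols, but whether counting used it, which annotation was taken and how libraries were scaled was not given in the sources used here, so reads of genes that overlap on opposite strands cannot be told apart. Groups follow the sample titles. The limma p-values weigh each group difference against the spread between libraries of a genotype, with variances moderated across genes. The series' design text calls the 3 libraries of each genotype biological replicates. Starts were raised by 1 to count from 1.

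From the deposited FPKM, log2(FPKM + 1) was fitted where the mean reached 1 FPKM (10149 genes). The tool was limma 3.58.1 (R 4.3.3), two-sided, its variances moderated along a mean trend, with Benjamini-Hochberg adjustment over all of them with a threshold of 0.05. A gene with no value in a library was fitted on the others. Log2 changes on this scale understate those of low genes, and folds are ratios of mean FPKM, or of geometric means for ratios within a library. Those ratios were compared by exact permutation of libraries, 8 in all. The fit was tested on simulated data.

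The genes and lists were chosen with earlier results of these data known. Named were all 10 genes and, in each other list, the genes past the test (at most 6) or else the most abundant and the one with the smallest p. Among marker lists this rule also takes Slc7a5 and Epha2 (epithelium), Crygs and Birc7 (fiber), Aqp1 (ciliary body and iris), Oca2 and Ttr (pigment cells), Egfl7 (endothelium) and Krt18 (cornea), given mainly in the closing section. Alternatives were other pseudocounts, filters and scalings, no trend, a replicate block and each library left out. Same-numbered libraries did not deviate together (correlations across 9407 genes from -0.055 to -0.027), so the numbers were not taken as pairs.

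Fragment counts are not in the table. Low values of single-exon genes were compared with whole fragments at every depth tried: at the best depth only 28.9% to 31.8% of them lay within 0.1 of a whole number, where 20% would by chance at a fixed depth. The depth is therefore taken as unknown.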

Additional observations from a re-analysis of the deposited data

How the results depend on the processing

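The count of core genes past the test, 1 as reported, stayed 1 with pseudocounts of 0.1 and 0.5 FPKM, a minimum mean of 5 FPKM, median-ratio scaling and quantile normalization. It was 0 without the filter, with the same FPKM total, with the same total without crystallins, without the trend, with the replicate block, and with each library left out in turn (0 to 0). The numbers are not shown to pair libraries; with the block, the adjusted p of Ctnnd2 was 0.199, and over all genes the calls went from 192 to 14. The count of 0 among the other junction genes was 0 to 1 with a library left out and 0 under the other alternatives. The median log2 change of all genes was -0.04 as deposited, 0.15 with the same total and 0.29 with the same total without crystallins. Of 143 alternative values of the 9 tested core genes, 10 changed sign, in 5 genes, while Ctnna1, Ctnnb1, Ctnnd2 and Tjp1 kept theirs.

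Signs turned as follows, and the cause was not tested. With the same total, log2 changes became 0.21 for Cdh2, 0.14 for Ctnna2, 0.16 for Cdh4, 0.052 for Arvcf, 0.17 for Jam3, 0.078 for Ezr, 0.24 for Csnk1a1 and 0.17 for Ccnd1. With the same total without crystallins they became 0.38 for Cdh2, 0.31 for Ctnna2, 0.14 for Ctnnd1, 0.29 for Cdh4, 0.23 for Arvcf, 0.13 for Pkp2, 0.33 for Jam3, 0.023 for Magi3, 0.25 for Ezr, 0.42 for Csnk1a1 and 0.33 for Ccnd1. Quantile normalization gave 0.061 for Cdh2, 0.011 for Ctnna2, 0.014 for Cdh4 and 0.14 for Csnk1a1, and median-ratio scaling 0.0019 for Cdh2, 0.00032 for Cdh4 and 0.037 for Csnk1a1. With a library left out, Cdh1 ranged from -0.0047 to 0.35, Jup from -0.016 to 0.15, Cdh4 from -0.12 to 0.068, Jam3 from -0.13 to 0.040 and Csnk1a1 from -0.058 to 0.025. The log2 ratio of Jup to Ctnnb1, -0.024 as reported, ranged from -0.17 to 0.083 and was 0.019 with the replicate block; the other 7 ratios kept their sign.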

Other observations

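Of the marker lists, those of ciliary body and iris and of lens epithelium held log2 changes of both signs. Of 13 photoreceptor markers tested, 1 was above 0 and 12 below (median -0.33). Of 2 pigment cell markers tested, 0 were above and 2 below, and of 13 fiber markers 9 were above and 4 below. Of 6 ciliary body and iris markers tested, 4 had log2 changes above 0 and 2 below, and 1 passed: Aqp1, a water channel found in other tissues too, rose from 5.27 ± 0.991 to 15.6 ± 3.96 FPKM (SD over 3 libraries each; limma adjusted p = 0.0432). In the same list Optc stood at 18.3 ± 3.58 FPKM in WT and 42.9 ± 9.93 FPKM in FNcKO without overlap (SD over 3 libraries each; limma adjusted p = 0.0682). Acta2, smooth muscle actin, went the other way, at 99.3 ± 6.06 FPKM in WT and 70.8 ± 6.54 FPKM in FNcKO without overlap (SD over 3 libraries each; limma adjusted p = 0.0702). Of 11 lens epithelial markers tested, 5 were above 0 and 6 below, with 2 past the test: Slc7a5, an amino acid transporter, rose from 6.91 ± 0.211 to 10.3 ± 0.0763 FPKM and Epha2, an ephrin receptor, from 5.74 ± 0.367 to 8.33 ± 0.502 FPKM (SD over 3 libraries each; limma adjusted p = 0.0159 and 0.0422). Sulf1, a sulfatase of heparan sulfate, stood at 6.80 ± 0.219 and 4.77 ± 0.496 FPKM (SD over 3 libraries each; limma adjusted p = 0.0634). Optc, Acta2 and Sulf1 were named after their values were seen. None of the following passed: Crygs at limma adjusted p = 0.80, Birc7 at 0.158, Oca2 at 0.0798, Ttr at 0.0887, Egfl7 at 0.292 and Krt18 at 0.0751.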
